A study of Mus musculus with 9 samples.

Results

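The genes described here are the protein-coding genes whose symbol begins with Slc and a number and that were chosen by level. FPKM, the unit of the level, is a count of fragments scaled to the length of a gene and to all reads of its library on genes, and a group mean over 3 libraries of 10 or more in at least 1 of 3 groups was required. Of 376 such symbols in the table, in 51 numbered families, 64 genes from 30 families met this level. The groups were CD11b+ B cells and CD11b- B cells from the bone marrow (BM) of wild-type C57BL/6 mice 48 h after LPS, from the outer membrane of bacteria, was given into the peritoneum (5 mg/kg), and peritoneal macrophages (PMs, CD11b+F4/80+) from naive wild-type mice. RNA of each library was amplified as full-length cDNA and sequenced, with 18014658 to 35251215 reads on genes. Nothing in the labels says that the 3 libraries of a group came from separate mice, so the p-values below measure only the spread between these libraries. In sorted bulk samples, fewer cells of a type and less RNA per cell cannot be told apart.

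The name solute carrier (SLC) covers membrane proteins that move amino acids, sugars, metals, nucleotides, vitamins and ions across membranes without splitting ATP themselves. Many work as exchangers or as cotransporters with sodium or protons. Members of the SLC25 family sit mainly in the inner mitochondrial membrane, those of the SLC35 family in the Golgi apparatus and endoplasmic reticulum, and many others at the cell surface or on lysosomes. Macrophages are known for metal and haem carriers of the phagosome and lysosome, and activated lymphocytes for amino acid and glucose carriers at the surface. Not every symbol of the 64 names a carrier. Slc9a3r1 and Slc9a3r2 encode the scaffold proteins NHERF1 and NHERF2, and Slc7a6os is named for its place opposite Slc7a6, so these 3 are given as a separate class.

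The markers of the labelled cell types were present. Itgam, which encodes CD11b, had an FPKM of 358, 254 and 251 in PMs, 0.4, 0.251 and 0.869 in CD11b- and 1.92, 1.31 and 1.51 in CD11b+ B cells. The summed FPKM of 10 B cell markers ranged over 12774 to 14685 in CD11b- and 12881 to 16041 in CD11b+ B cells, against 132 to 254 in PMs. The summed FPKM of 10 macrophage markers was 20442 to 55023 in PMs and 35.1 to 48.3 in CD11b- B cells. In the CD11b+ B cell libraries 1, 2 and 3 the macrophage sum was 283, 262 and 84.5, and the sum of 10 neutrophil markers was 639.6, 1540.2 and 215, against 1.76 to 3 in CD11b- B cells, although granulocytes had been depleted with antibodies before the sort. The plasma cell sum (228, 203 and 590.3 against 85.2 to 149.6), the proliferation sum (273, 248 and 86.7 against 38.4 to 130.0) and the erythroid sum (39.1, 39.2 and 27.7 against 1.67 to 21.3) were also higher on average in CD11b+ B cells, and the part of these markers in the differences below was not tested.

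By the rule, 23 members reached an FPKM of 10 in all 3 groups, 18 in both B cell groups but not in PMs, 14 in PMs alone and 7 in CD11b- B cells alone. Slc16a6 reached it in PMs and CD11b+ B cells, and Slc25a51 in PMs and CD11b- B cells. No member reached it in CD11b+ B cells alone. The level chose these classes, so they are a description. The rule let members pass through the group where they were high, which favours groups that lie apart: the libraries of CD11b+ B cells and PMs did not overlap in 47 of 64 members, and in 34.3% of all genes tested with the B cells higher and 12.4% with them lower, and those of CD11b- B cells and PMs in 50 of 64, beside 36.1% and 15.2% of all genes. Statements below that PM and B cell libraries lay apart describe the values and support nothing further. Just inside the limit were Slc25a53 (10.1 in CD11b- B cells) and Slc25a20 (10.3), and just outside were Slc66a2 (9.99 in PMs) and Slc35e3 (9.95 in PMs). The members took up 0.389% ± 0.0324 of the summed FPKM of protein-coding genes in PMs, 0.823% ± 0.0305 in CD11b- B cells and 0.747% ± 0.0644 in CD11b+ B cells (mean ± SD, n = 3 each).

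**Figure D1:**
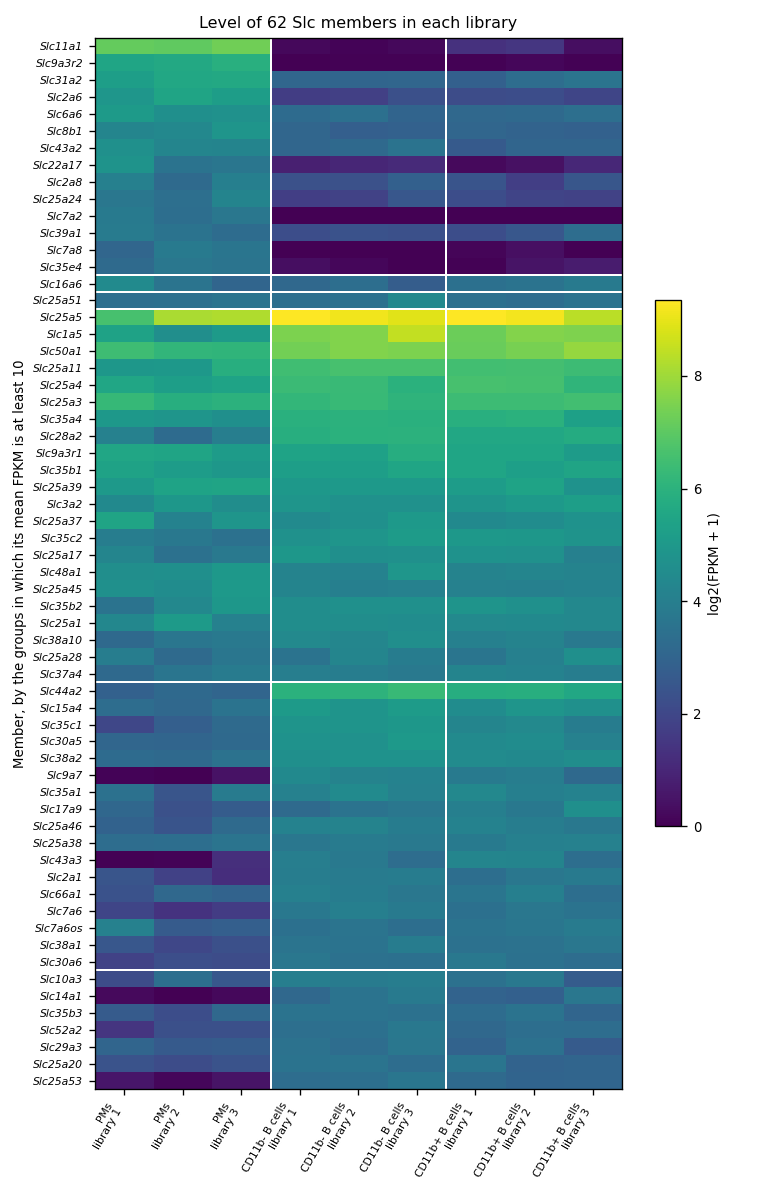
Level of 62 members (rows) in each of the 9 libraries (columns), as log2(FPKM + 1), with rows ordered by the groups in which the mean FPKM was at least 10 and, within those, by the highest group mean. The 14 members at the top had a mean FPKM of at least 10 in PMs alone, and Slc25a5 is the brightest row.

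Promoter sequences were read for 46 of the 64 members from RefSeq on GRCm38.p6, as the 250 bases before the annotated start. Those of 4 members are shown because they differ in level and in CpG content, and they were chosen after both had been seen. Capitals mark the dinucleotide CG. Slc11a1, high in PMs only, has 5 CG dinucleotides in chr1:74374953-74375202, plus strand. Slc9a7, high in B cells only, has 19 in chrX:20291828-20292077, minus strand. Slc28a2 has 0 in chr2:122426185-122426434, plus strand, and Slc25a11, high in every library, has 19 in chr11:70647040-70647289, minus strand. The last of these windows lies inside the gene as annotated in GENCODE M21 (chr11:70644196-70647479, minus strand), whose annotated start is further upstream.
Slc11a1: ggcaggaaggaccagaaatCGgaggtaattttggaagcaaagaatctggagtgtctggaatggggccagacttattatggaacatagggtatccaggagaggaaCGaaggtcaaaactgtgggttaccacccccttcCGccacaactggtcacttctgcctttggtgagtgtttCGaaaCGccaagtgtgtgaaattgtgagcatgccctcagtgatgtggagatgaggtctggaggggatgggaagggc
Slc9a7: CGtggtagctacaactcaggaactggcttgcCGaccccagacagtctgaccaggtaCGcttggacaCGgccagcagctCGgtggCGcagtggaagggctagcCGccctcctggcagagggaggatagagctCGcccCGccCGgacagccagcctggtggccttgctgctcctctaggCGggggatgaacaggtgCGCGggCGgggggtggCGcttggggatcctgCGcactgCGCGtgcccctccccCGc
Slc28a2: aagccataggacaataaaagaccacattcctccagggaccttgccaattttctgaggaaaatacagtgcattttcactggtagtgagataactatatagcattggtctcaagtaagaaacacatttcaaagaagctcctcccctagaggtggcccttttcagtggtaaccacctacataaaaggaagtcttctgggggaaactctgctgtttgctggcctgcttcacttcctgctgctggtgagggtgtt
Slc25a11: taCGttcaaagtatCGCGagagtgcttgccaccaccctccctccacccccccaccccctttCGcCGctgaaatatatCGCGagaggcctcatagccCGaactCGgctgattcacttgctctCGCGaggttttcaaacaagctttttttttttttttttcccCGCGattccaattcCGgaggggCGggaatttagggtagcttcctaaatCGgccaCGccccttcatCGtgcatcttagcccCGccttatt

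The ratio of observed to expected CG, from the base content of the window and taken as the highest over a gene's windows, was 0.335 for Slc11a1, 0.63 for Slc9a7, 0 for Slc28a2 and 1.15 for Slc25a11. Over the 46 members its median was 0.687, against 0.403 over the 27025 genes of the promoter table, and 33 of 46 members (71.7%) had a ratio of at least 0.6, against 36.5% of all genes. These were 13 of 18 members high in all 3 groups, 11 of 13 high in both B cell groups, 6 of 11 high in PMs only and 3 of 4 high in CD11b- B cells only. The GC box letters GGGCGG, on either strand, stood in the window of 34 of 46 members (73.9%) and of 35.4% of all genes. TATAAA stood in 4 members (8.70%) and in 14.3% of all genes. TATAAA and the motifs that follow were also sought on both strands. CACGTG stood in 2 members (4.35%) and in 6.86% of all genes. TGANTCA stood in 3 members (6.52%) and in 7.82% of all genes. GAGGAAGT stood in 1 member (2.17%) and in 2.79% of all genes, and TGACGTCA in 0 members and in 1.77% of all genes. None of these motifs contains another, but GGGCGG holds a CG itself, so its count and the ratio are not independent. The motifs were chosen after the levels were known. The members were chosen by level and the 27025 genes were not, so these sets are not matched for level. The part of level in the differences between them was not tested. The matches describe letters in these windows only.

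Carriers of iron, copper, magnesium and haem had 3 members, of which Slc11a1 and Slc31a2 met the level in PMs alone. Slc11a1 (ENSMUSG00000026177, chr1:74375195-74386062, plus strand on GRCm38) encodes NRAMP1, a proton-coupled carrier of divalent metals in the phagosome membrane of macrophages. Its FPKM in libraries 1, 2 and 3 was 139.8, 133 and 158 in PMs, 0.146, 0.0696 and 0.143 in CD11b- and 1.49, 1.81 and 0.268 in CD11b+ B cells. Its mean in PMs was below that of Slc25a5 alone and was 121 times that of CD11b+ B cells and 1203 times that of CD11b- B cells, whose 3 libraries had 44 reads on it. Slc31a2, a relative of the copper importer found on endosomes and lysosomes, had 36.4, 47.1 and 48.7 in PMs, 7.47, 7.26 and 7.5 in CD11b- and 6.35, 9.21 and 11.1 in CD11b+ B cells. Every PM library was above every B cell library. Slc48a1, which carries haem out of endosomes and lysosomes, was at least 10 in all groups, with 23.7, 23.9 and 30.9 in PMs, 17.2, 16.5 and 28.8 in CD11b- and 17.2, 18.3 and 17.3 in CD11b+ B cells. Its reads cannot be told apart from those of Hdac7 on the other strand where the exons of both overlap, since the library kit does not mark strand. The summed FPKM of these 3 members was 199.9, 204 and 238 in PMs, against 24.8, 23.8 and 36.4 in CD11b- and 25, 29.3 and 28.6 in CD11b+ B cells. The mean of Slc11a1 alone in PMs was 144.

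Among amino acid carriers, some members met the level through PMs and others through B cells, also within single families. Slc1a5, the glutamine and neutral amino acid exchanger ASCT2, had an FPKM of 40.6, 23.2 and 32.9 in PMs, 178, 187 and 355 in CD11b- and 149, 194 and 187 in CD11b+ B cells, so that both B cell groups lay above PMs and overlapped each other. Library 3 of CD11b- B cells stood apart from the other two. Slc3a2, the heavy chain that brings several SLC7 light chains to the surface, had group means of 24.3 in PMs, 26.5 in CD11b- and 32.2 in CD11b+ B cells. In the SLC7 family, Slc7a2 (a carrier of arginine and other cationic amino acids) and Slc7a8 (LAT2, for neutral amino acids) met the level in PMs, and Slc7a6 (y+LAT2) in B cells. Slc7a2 had 13.6, 9.45 and 12.1 in PMs, with 6995 reads in all, and 14 and 15 reads in CD11b- and CD11b+ B cells. Slc7a8 had 7.41, 13.6 and 11.5 in PMs, with 3808 reads, against 4 and 56 reads in the B cell groups. Slc7a6 had 2.85, 1.59 and 2.16 in PMs, 12.4, 15.5 and 13 in CD11b- and 9.88, 11.9 and 10.7 in CD11b+ B cells.

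In the SLC43 family, Slc43a2 (LAT4, a carrier of large neutral amino acids) had 25, 17.8 and 17.8 in PMs, 7.47, 8.09 and 10.8 in CD11b- and 5.23, 7.27 and 7.22 in CD11b+ B cells. Slc43a3 stands in the amino acid class by its family number only, since its product carries purine bases, and had 0.0373, 0.0614 and 1.38 in PMs, 14.8, 12.5 and 9.21 in CD11b- and 17.9, 17.6 and 9.34 in CD11b+ B cells. In both genes the PM libraries lay apart from all B cell libraries. Slc6a6, the taurine carrier, was 27.3 ± 4.65 in PMs, 8.55 ± 1.48 in CD11b- and 8.61 ± 0.917 in CD11b+ B cells (SD, n = 3). The sodium-coupled glutamine carriers Slc38a1 and Slc38a2 were lower in every PM library than in any B cell library, with group means of 3.87 in PMs, 11.9 in CD11b- and 11 in CD11b+ B cells for Slc38a1 and of 8.99 in PMs, 25.4 in CD11b- and 21.7 in CD11b+ B cells for Slc38a2. Slc38a10 had group means of 10.8 in PMs, 20.7 in CD11b- and 15.2 in CD11b+ B cells.

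Among sugar carriers, Slc2a6 (GLUT6, found on lysosomes) and Slc2a8 (GLUT8, found inside the cell) met the level in PMs, and Slc2a1 (GLUT1, the common glucose carrier of the surface) in B cells. Slc2a6 had 29.2, 42.8 and 35.5 in PMs, 2.21, 2.4 and 3.91 in CD11b- and 3.46, 3.68 and 2.84 in CD11b+ B cells. Slc2a8 had 15.8, 8.29 and 15.4 in PMs, 3.98, 4.02 and 6.31 in CD11b- and 4.39, 2.29 and 4.59 in CD11b+ B cells. Slc2a1 had 4.58, 2.54 and 1.34 in PMs, 14.5, 13.7 and 14.2 in CD11b- and 9.45, 12 and 12.9 in CD11b+ B cells. In these 3 genes no PM library overlapped the B cell libraries. The most abundant sugar carrier was Slc50a1, a uniporter known as SWEET1, with 86.9, 69.3 and 67.4 in PMs, 163, 190.2 and 180.1 in CD11b- and 148, 172 and 230.3 in CD11b+ B cells. Slc37a4, which brings glucose 6-phosphate into the endoplasmic reticulum, had group means of 11.2 in PMs, 14.1 in CD11b- and 16.3 in CD11b+ B cells.

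**Figure D2:**
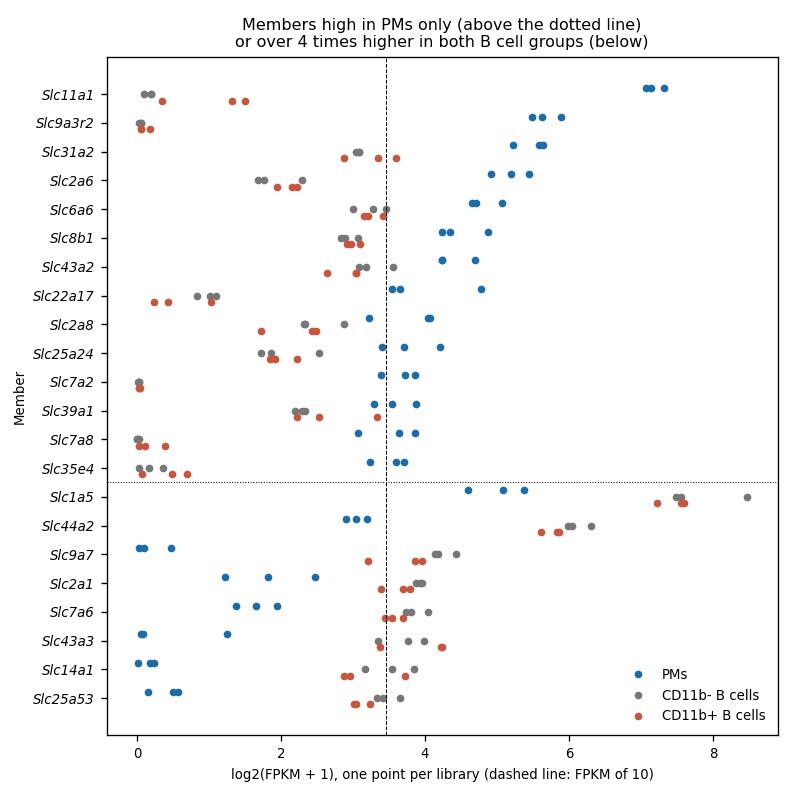
Level of the 14 members with a mean FPKM of at least 10 in PMs alone (above the dotted line) and of 8 members whose mean in both B cell groups was over 4 times that in PMs (below it), as log2(FPKM + 1) with 1 point per library. PM points lie to the right of all B cell points above the dotted line, except for library 3 of CD11b+ B cells in Slc39a1, and to the left of them below it, as the choice of these members by level favours.

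Mitochondrial carriers were the largest class, with 17 of the 47 SLC25 genes in the table, and 10 of them reached an FPKM of 10 in every group. Slc25a5, the main ADP/ATP translocase of growing cells, was the most abundant member in each group, with 97.4, 286 and 297 in PMs, 633, 563 and 489.6 in CD11b- and 648, 579 and 334 in CD11b+ B cells. Library 1 of PMs stood well below the other PM libraries, and library 3 of CD11b+ B cells below the other B cell libraries. Its close relative Slc25a4 had 44.9, 36.2 and 42 in PMs, 81.6, 78.7 and 62.1 in CD11b- and 98.6, 94.3 and 68.2 in CD11b+ B cells, and a processed copy, Slc25a5-ps, stayed at or below 0.121 in every library, although reads shared by near-identical copies cannot be assigned with certainty. Slc25a3, the phosphate carrier, was 65.1 in PMs, 71.8 in CD11b- and 86.1 in CD11b+ B cells in the group means, and Slc25a11, the oxoglutarate carrier, was 39.3 in PMs, 94.7 in CD11b- and 88.9 in CD11b+ B cells. Exons of Slc25a11 overlap Rnf167 on the other strand.

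Slc25a53 was low in PMs. It had 0.481, 0.116 and 0.417 in PMs, 9.05, 9.68 and 11.6 in CD11b- and 8.45, 7.04 and 7.2 in CD11b+ B cells. Slc25a24, an ATP-magnesium/phosphate carrier, was higher in PMs, with 12.1, 9.59 and 17.5 in PMs, 2.3, 2.62 and 4.75 in CD11b- and 3.65, 2.77 and 2.6 in CD11b+ B cells. In both genes PM and B cell libraries did not overlap. The mitochondrial iron carriers Slc25a37 (mitoferrin 1) and Slc25a28 (mitoferrin 2) had group means of 29.5 in PMs, 25.9 in CD11b- and 23.1 in CD11b+ B cells for the first and of 11.6 in PMs, 14.2 in CD11b- and 17.1 in CD11b+ B cells for the second. Further members of the family were Slc25a39, for glutathione, at 38.3 in PMs, 31.6 in CD11b- and 34.4 in CD11b+ B cells, Slc25a1, for citrate, at 22.8 in PMs, 22.6 in CD11b- and 20.1 in CD11b+ B cells, Slc25a17, a peroxisomal carrier, at 13.7 in PMs, 26.5 in CD11b- and 22.3 in CD11b+ B cells, and Slc25a38, Slc25a46, Slc25a20 and Slc25a51. Slc25a38, for glycine, was 9.78 in PMs, 12.8 in CD11b- and 15.1 in CD11b+ B cells, Slc25a46, of the outer membrane, 6.54 in PMs, 16.1 in CD11b- and 14.5 in CD11b+ B cells, Slc25a20, for carnitine esters, 3.98 in PMs, 10.3 in CD11b- and 8.58 in CD11b+ B cells, and Slc25a51, for NAD+, 10.1 in PMs, 13.4 in CD11b- and 9.91 in CD11b+ B cells. Slc25a37 ranged from 16.7 to 43.3 among PM libraries, wider than the gap between the group means.

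In the SLC35 family of nucleotide sugar carriers, 8 of 27 genes were members. Slc35c1, which brings GDP-fucose into the Golgi apparatus for the fucosylation of glycoproteins, had 3.02, 6.14 and 8.49 in PMs, 27.5, 27.4 and 29.9 in CD11b- and 17.9, 19.9 and 14 in CD11b+ B cells, so that no group overlapped another. Slc35a1, the CMP-sialic acid carrier, had group means of 9.52 in PMs, 18 in CD11b- and 17.1 in CD11b+ B cells, and Slc35b2, the carrier of the sulfate donor PAPS, 20 in PMs, 24.2 in CD11b- and 24 in CD11b+ B cells. Slc35b1, in the endoplasmic reticulum, was 35.1 in PMs, 39.1 in CD11b- and 41.6 in CD11b+ B cells. Slc35a1 was lower in every PM library than in any B cell library. Slc35c2 was 12.4 in PMs, 29.3 in CD11b- and 29.1 in CD11b+ B cells, Slc35a4 27.6 in PMs, 60.9 in CD11b- and 52.8 in CD11b+ B cells and Slc35b3, also for PAPS, 5.6 in PMs, 10.6 in CD11b- and 8.96 in CD11b+ B cells. Slc35e4 alone of the family was high in PMs only, with 8.41, 12.1 and 11.2 against 0.284, 0.122 and 0.0204 in CD11b- and 0.0445, 0.399 and 0.621 in CD11b+ B cells.

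Among carriers of ions, choline, nucleosides, urea and zinc, several were lower in PMs than in B cells, and Slc9a7 and Slc14a1 were near 0 there. Slc9a7 (NHE7, a sodium/proton exchanger of the trans-Golgi network; chrX:20105754-20291807, minus strand) had 0.0727, 0.0179 and 0.389 in PMs, 20.7, 17.2 and 16.7 in CD11b- and 13.6, 14.6 and 8.22 in CD11b+ B cells. Slc44a2, a choline carrier, had 6.47, 8.18 and 7.25 in PMs, 62.1, 65 and 78 in CD11b- and 56.2, 57.4 and 48.1 in CD11b+ B cells. Slc28a2, which concentrates purine nucleosides, had 16.4, 8.67 and 14.9 in PMs, 57.4, 61.5 and 62.7 in CD11b- and 47.4, 48.1 and 52.6 in CD11b+ B cells. Slc14a1, a urea carrier, had 0.181, 0.00857 and 0.136 in PMs, 7.98, 10.7 and 13.4 in CD11b- and 6.76, 6.33 and 12.2 in CD11b+ B cells. In all 4 every B cell library was above every PM library. Of the 3 zinc members, Slc30a5 and Slc30a6, which move zinc into the secretory pathway, had means of 7.57 and 3.27 in PMs, 27.9 and 10.7 in CD11b- and 19.8 and 10.5 in CD11b+ B cells, and Slc39a1, which brings zinc into the cytosol, had 11 in PMs, 3.83 in CD11b- and 5.85 in CD11b+ B cells. Slc8b1, the mitochondrial sodium/calcium exchanger, was high in PMs (17.9, 19.4 and 28.3) and lower in CD11b- (7.37, 6.13 and 6.41) and CD11b+ B cells (7.55, 6.84 and 6.52).

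The remaining members included the lysosomal carriers Slc15a4 and Slc66a1. Slc15a4, a carrier of histidine and peptides needed for signalling by endosomal Toll-like receptors, had 9.07, 7.93 and 10.8 in PMs, 33.2, 27.7 and 33.8 in CD11b- and 22.2, 27.9 and 24.5 in CD11b+ B cells. Slc66a1, which exports cationic amino acids from lysosomes, had group means of 6.31 in PMs, 14 in CD11b- and 11.9 in CD11b+ B cells. Slc17a9, a carrier of nucleotides into vesicles, had 7.68, 3.99 and 5.59 in PMs, 8.39, 10.7 and 12.2 in CD11b- and 15.5, 12.4 and 24.4 in CD11b+ B cells. Slc15a4 and Slc17a9 were lower in every PM library than in any B cell library. Slc29a3, a lysosomal nucleoside carrier, was 6.07 in PMs, 10.5 in CD11b- and 7.42 in CD11b+ B cells, Slc52a2, for riboflavin, 3.16 in PMs, 10.6 in CD11b- and 8.77 in CD11b+ B cells, Slc10a3 5.85 in PMs, 14.3 in CD11b- and 9.31 in CD11b+ B cells and Slc16a6 13.1 in PMs, 7.62 in CD11b- and 11.3 in CD11b+ B cells in the group means. Slc22a17, a receptor for lipocalin 2, had 26.5, 10.7 and 11.6 in PMs and 1.15 or less in every B cell library. Of the genes that encode no carrier, Slc9a3r2 had 43.9, 48.3 and 58.1 in PMs and 9 and 16 reads in all in the CD11b- and CD11b+ B cell libraries, while Slc9a3r1 had group means of 40.5 in PMs, 45.4 in CD11b- and 40.6 in CD11b+ B cells and Slc7a6os of 9.27 in PMs, 10.2 in CD11b- and 12.1 in CD11b+ B cells.

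**Figure D3:**
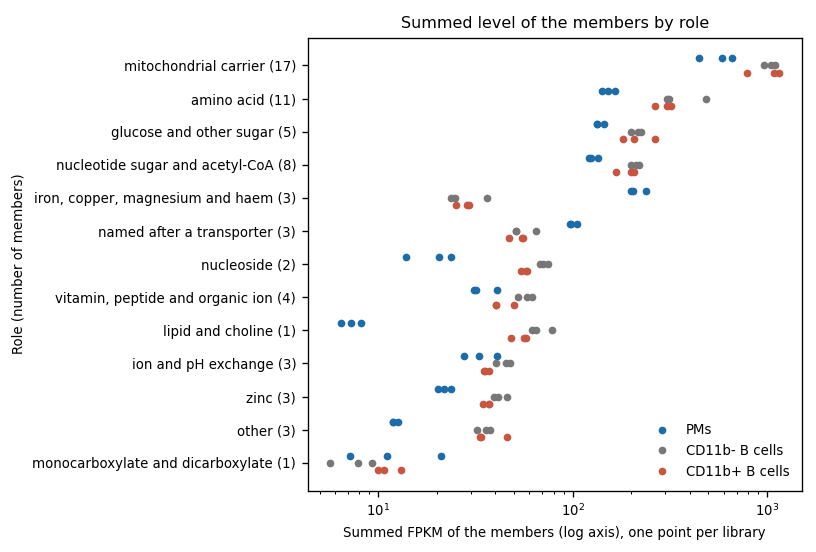
Summed FPKM of the members of each role (number of members in brackets) on a log axis, with 1 point per library. Mitochondrial carriers sum to 450 to 658 in PMs and 793 to 1156 in the B cell libraries. Slc11a1 makes up most of the PM sum of iron, copper, magnesium and haem carriers.

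Cell component terms in the authors' table gave a further description that the rule had not used. The term plasma membrane was attached to 11 of the 14 members high in PMs only, to 5 of the 18 high in both B cell groups and to 5 of the 23 high in all groups. The term mitochondrial inner membrane was attached to 9 of those 23. Over all 376 Slc genes the shares were 54.3% and 12.2%. Single genes carry terms of unequal completeness, and no test was made.

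The comparison of CD11b+ with CD11b- B cells asked which carriers differ between B cells that do or do not carry CD11b. Both groups were from bone marrow after the same LPS treatment, and the labels do not say that they share mice. Differences are of mean log2(FPKM + 1), tested with limma (two-sided) and adjusted by Benjamini and Hochberg over all 21778 genes whose FPKM averaged 0.05 or more, 3 libraries against 3. Of 376 Slc genes, 238 passed that filter, and 0 were called at an adjusted p under 0.05 in either direction. Over all genes 0.0689% were called higher and 0% lower. At an unadjusted p under 0.05, 6 Slc genes were higher in CD11b+ B cells, where 4.65% of all genes were, and 9 were lower, where 3.04% of all genes were. edgeR on the whole reads, with its filter on low counts, also called 0 Slc genes (0.269% of all genes higher and 0% lower). edgeR on every gene with a read called 3 higher and 4 lower (1.11% and 0.414% of all genes), and DESeq2 called 3 higher and 1 lower (1.82% and 0.271% of all genes). Slc11a1, Slc40a1 (the iron exporter ferroportin) and Slc44a4 were the 3 higher genes in both of the latter, and Slc35c1 was lower in both. In simulated data DESeq2 made more false calls than limma and edgeR with its filter, so its calls are given as an alternative only.

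A test is given here for the members that reached an FPKM of 10 in both B cell groups or in PMs and that passed the filter, 56 in all (Slc7a2 did not pass it). Of these, 23 had a higher mean in CD11b+ B cells and 33 a lower mean. The 6 libraries did not overlap in 15 of them, 4 higher and 11 lower, where 8.63% of all genes did not overlap with CD11b+ higher and 6.32% with CD11b+ lower. Over all 238 Slc genes, 14 (5.88%) and 27 (11.3%) did not overlap. The lowest adjusted p among the 56 was 0.311, for Slc35c1.

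Slc35c1 had the largest fall among them on the log2(FPKM + 1) scale, from 28.3 ± 1.4 in CD11b- to 17.3 ± 3 in CD11b+ B cells (FPKM, SD, n = 3), a log2 difference of -0.69 (SE 0.16) that limma did not call and that DESeq2 called at an adjusted p of 0.0467. Adjusted p-values in the other settings ran from 0.0376 in edgeR on every gene with a read to 0.739 with all 9 libraries in one fit. The lowest library of CD11b- B cells, at 27.4, lay above the highest of CD11b+ B cells, at 19.9, and the exact permutation test gave p = 0.1, the smallest that 3 against 3 can give. As a ratio of means, CD11b+ over CD11b-, it was 0.612, against 0.531 for Slc22a17, whose levels were low. Slc9a7 (-0.58, SE 0.22), Slc30a5 (-0.47, SE 0.17), Slc38a10 (-0.42, SE 0.17) and Slc44a2 (-0.34, SE 0.14) also had no overlap and were not called, with adjusted p-values of 0.59 to 0.644.

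Slc11a1 had the largest rise on the same scale. Its log2 difference of 0.89 (SE 0.30, adjusted p = 0.567 with limma) is on the log2(FPKM + 1) scale and understates the ratio of means, which was 9.97, from 44 reads in CD11b- and 373 in CD11b+ B cells. The ratio for Slc7a8 was larger, at 17.2, and rested on 4 and 56 reads. DESeq2 called Slc11a1 at an adjusted p of 0.000421 and edgeR on every gene with a read at 0.00417, whereas edgeR with the filter gave 0.204. Over all settings its adjusted p ran from 0.000421 to 0.830. The values were 1.49, 1.81 and 0.268 in CD11b+ libraries 1, 2 and 3, where the macrophage sum was 283, 262 and 84.5 and the neutrophil sum 639.6, 1540.2 and 215. Library 3 was the lowest in all of these, and the part of such markers in the level of Slc11a1 was not tested. The difference was 0.76 without library 1 of CD11b+ B cells, 0.67 without library 2 and 1.24 without library 3 (limma adjusted p = 0.664, 0.650 and 0.0811), and 0.86 to 0.91 without any 1 library of CD11b- B cells. With the number in the sample descriptions as a block it was 0.63 (adjusted p = 0.656).

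Slc17a9 (0.65, SE 0.25, adjusted p = 0.642), Slc16a6 (0.52, SE 0.21, adjusted p = 0.643) and Slc25a3 (0.26, SE 0.12, adjusted p = 0.676) also had every CD11b+ library above every CD11b- library and were not called by limma. Slc16a6, of the monocarboxylate carrier family, overlaps Amz2 and Arsg on the other strand. Of the 13 members besides Slc11a1 that reached 10 in PMs alone, 9 had a higher mean in CD11b+ than in CD11b- B cells, and 0 of those that passed the filter were called. Among them, Slc39a1 was 3.83 ± 0.247 and 5.85 ± 2.88, Slc31a2 7.41 ± 0.133 and 8.87 ± 2.38, and Slc2a6 2.84 ± 0.928 and 3.33 ± 0.431 in CD11b- and CD11b+ B cells (SD, n = 3). For the 7 members that reached 10 in CD11b- B cells alone the rule fixed the direction, and no test is given. The largest of these differences was Slc10a3 (14.3 ± 0.59 against 9.31 ± 3.42), whose exons overlap Ubl4a.

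**Figure D4:**
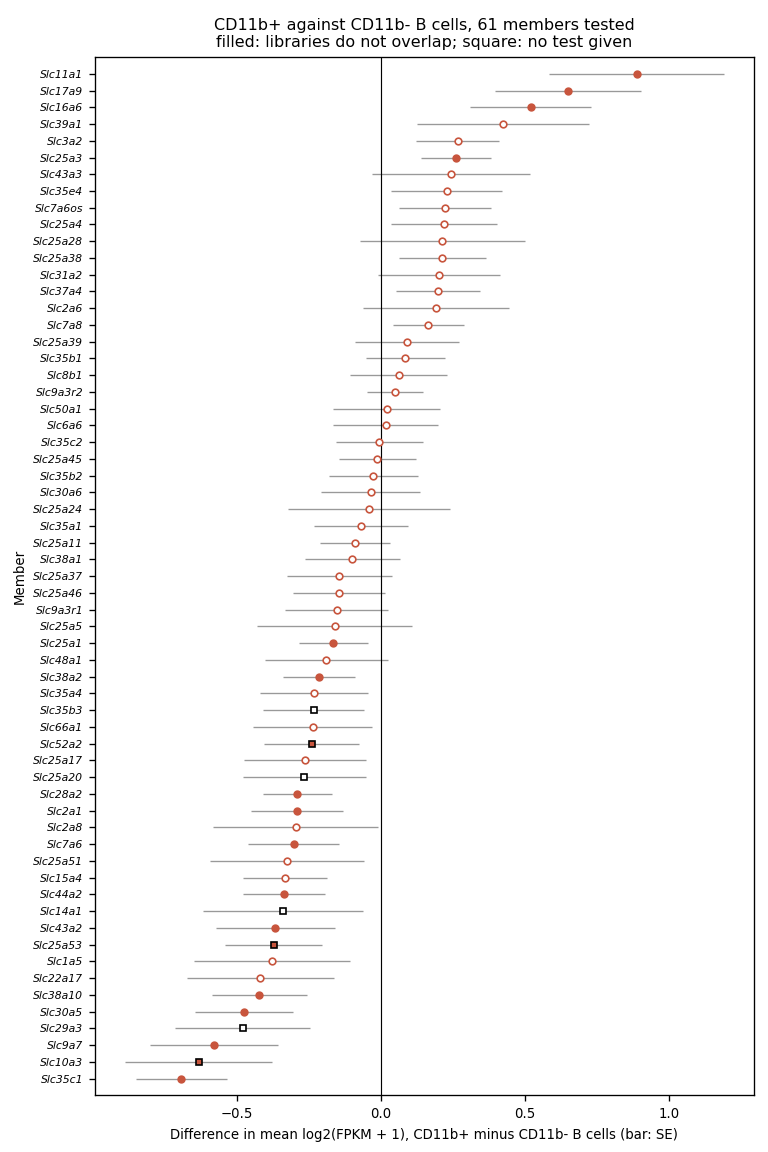
Difference in mean log2(FPKM + 1) between CD11b+ and CD11b- B cells for 61 members that passed the filter (Slc7a2 did not), with bars for the SE. Filled symbols mark members whose 6 libraries did not overlap and squares the 7 members for which no test is given. Slc11a1 is highest at 0.89 and Slc35c1 lowest at -0.69.

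In the comparisons of each B cell group with PMs, the cell type, the tissue and the LPS treatment changed together and cannot be told apart. The comparisons share the PM libraries, and CD11b+ B cells also enter the comparison above. Of 242 Slc genes tested with limma in CD11b+ B cells against PMs, 47 were called higher (19.4%, against 21.5% of all genes) and 33 lower (13.6%, against 8.78%). Without library 2 of CD11b+ B cells, 21 were lower. In CD11b- B cells against PMs, 57 of 242 were higher (23.6%, against 25.8% of all genes) and 36 lower (14.9%, against 11%). These counts depended on the scaling. Under median-ratio scaling of FPKM the factors differed between the groups by -0.50 and -0.53 (log2). That is the shift of a gene far above the pseudocount of 1, and low genes moved less. The median difference of all genes moved from 0.25 to 0.13 and from 0.24 to 0.067. The calls then became 30 higher and 43 lower in CD11b+ B cells (13.4% and 11.8% of all genes), and 40 higher and 47 lower in CD11b- B cells (16.4% and 14.8% of all genes). Each tool tested a different number of Slc genes. In CD11b+ B cells against PMs, edgeR on every gene with a read called 43 of 359 higher and 48 lower (8.73% and 8.07% of all genes), and DESeq2 50 of 258 higher and 57 lower (18.9% and 17.5% of all genes). In CD11b- B cells against PMs, edgeR called 50 of 333 higher and 55 lower (11.7% and 11.8% of all genes), and DESeq2 49 of 246 higher and 63 lower (20.9% and 22.1% of all genes).

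By role, counts were taken over every Slc gene tested, beside the 21.5% higher and 8.78% lower of all genes in CD11b+ B cells and the 25.8% and 11% in CD11b- B cells. The mitochondrial carriers were the largest role tested. Of 41, 10 were higher and 3 lower in CD11b+ B cells and 16 higher and 4 lower in CD11b- B cells, with median differences of 0.57 and 0.39 (log2), beside the 0.25 and 0.24 of all genes. After median-ratio scaling the mitochondrial carriers gave 4 higher and 3 lower of 41, and 9 higher and 6 lower of 40. Their medians were then 0.28 and 0.17, beside 0.13 and 0.067 of all genes. The 33 tested amino acid carriers gave 7 higher and 6 lower, and 8 higher and 7 lower, with medians of 0.27 and 0.17, and after scaling 6 higher and 7 lower of 33, and 7 and 7 of 31. Of 10 tested monocarboxylate and dicarboxylate carriers, 0 were higher and 4 lower in each comparison, with medians of -0.60 and -0.54, and the counts were 0 and 4 after scaling too. Carriers of metals and haem gave 0 higher and 2 lower of 9 and of 8 tested, with medians of -0.54 and -0.43, and 0 higher and 3 lower in each after scaling.

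In each comparison, 24 members reached an FPKM of 10 on both sides and a test is given for them. Against PMs, 7 of these were higher in CD11b+ B cells and 1 was lower, and 10 were higher in CD11b- B cells and 1 was lower. Over all genes, 21.5% and 8.78% were called in CD11b+ and 25.8% and 11% in CD11b- B cells. After median-ratio scaling these became 4 higher and 2 lower, and 5 higher and 3 lower, where all genes gave 13.4% and 11.8%, and 16.4% and 14.8%. Slc1a5, Slc28a2, Slc50a1 and Slc35c2 were called higher in both B cell groups under either scaling and without any 1 library, although the call of Slc35c2 in CD11b+ B cells was lost with edgeR on every gene with a read (adjusted p = 0.0672). Slc1a5 differed by 2.44 (SE 0.24, adjusted p = 0.000197) in CD11b+ and by 2.82 (SE 0.32, adjusted p = 0.000446) in CD11b- B cells, which are ratios of mean FPKM of 5.47 and 7.44. After scaling its differences were 1.95 and 2.29. For Slc28a2 the differences were 1.86 (SE 0.25) and 2.15 (SE 0.24), for Slc50a1 1.27 (SE 0.22) and 1.25 (SE 0.17), and for Slc35c2 1.18 (SE 0.20) and 1.18 (SE 0.20), with limma adjusted p-values of 0.000428 to 0.00397.

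Slc25a45, a mitochondrial carrier, was the member called lower under either scaling, with a difference of -0.64 (SE 0.19, adjusted p = 0.0401) in CD11b+ and -0.63 (SE 0.18, adjusted p = 0.0314) in CD11b- B cells, with FPKM of 24.7, 22.1 and 31.4 in PMs, 17.7, 15.2 and 16.3 in CD11b- and 16.3, 15.7 and 16.6 in CD11b+ B cells. The call in CD11b+ B cells was lost with a pseudocount of 0.1 and with no filter (adjusted p = 0.0507 and 0.0529). Both calls were lost without library 3 of PMs (adjusted p = 0.124 and 0.0824) and without any 1 library of the B cell group compared (0.0679 to 0.122 in CD11b+ and 0.0699 to 0.111 in CD11b- B cells). Slc48a1 was not called by limma on FPKM as deposited (-0.54 and -0.35, adjusted p = 0.063 and 0.309). It was called lower in both B cell groups after median-ratio scaling (-1.02 and -0.86, adjusted p = 0.0069 and 0.0383), by edgeR with its filter (adjusted p = 0.00696 and 0.0409) and by DESeq2 (0.000304 and 0.0239). Slc25a39 was likewise not called by limma as deposited, and in CD11b- B cells it was called lower after scaling (-0.78, adjusted p = 0.0279), by edgeR with its filter (adjusted p = 0.0214) and by DESeq2 (0.00626), while in CD11b+ B cells none of these called it (adjusted p = 0.0879 to 0.113). Slc25a3 was called lower in CD11b- B cells by DESeq2 alone of these (-0.38, adjusted p = 0.0467), where limma as deposited had 0.15 (adjusted p = 0.489). The calls of Slc25a11 and Slc25a4 in both groups, and of Slc25a5, Slc25a17 and Slc38a10 in CD11b- B cells, were lost after scaling. Before scaling, the call of Slc25a11 in CD11b+ B cells was lost without library 2 of these cells (adjusted p = 0.0510). In CD11b- B cells the call of Slc38a10 was lost without library 3 (0.0503), that of Slc25a17 without library 1 or 2 (0.0721 and 0.0509), and that of Slc25a5 without library 1, 2 or 3 (0.107, 0.0934 and 0.0752). Slc35a4, whose exons overlap Apbb3, kept its call after scaling in CD11b- B cells (0.60, adjusted p = 0.0233) and not in CD11b+ B cells (0.40, adjusted p = 0.245), where the call before scaling was also lost without PM library 2 or 3 (0.0517 and 0.0674) or CD11b+ library 1 or 2 (0.0837 and 0.0897).

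**Figure D5:**
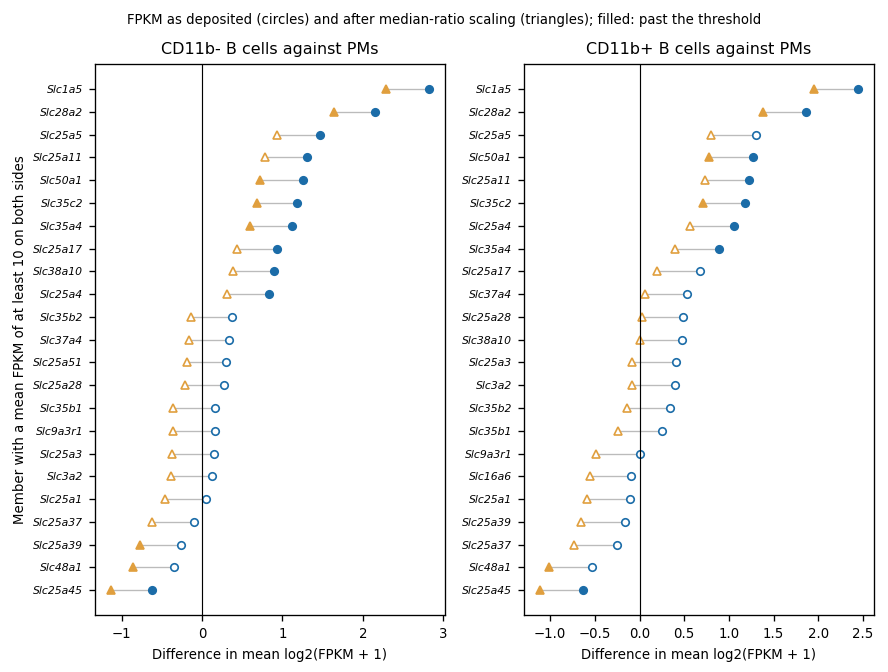
Difference in mean log2(FPKM + 1) from PMs for 23 members of each panel with a mean FPKM of at least 10 on both sides, in CD11b- (left) and CD11b+ B cells (right), from FPKM as deposited (circles) and after median-ratio scaling (triangles), filled where limma called it. Scaling moves all 23 members of each panel to the left, and Slc1a5 and Slc28a2 stay furthest to the right.

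Genes that work with these carriers were read from the same fits. Of 63 partner and related genes on 6 lists, 59 passed the filter in CD11b+ against CD11b- B cells, and limma called 0 of them there. The counts against PMs stand beside 21.5% higher and 8.78% lower of all genes in CD11b+ and 25.8% and 11% in CD11b- B cells, and beside 13.4% and 11.8%, and 16.4% and 14.8%, after median-ratio scaling. Against PMs, the chaperones of monocarboxylate carriers, Bsg and Emb, were lower in both B cell groups, with differences for Bsg of -1.61 (SE 0.25, adjusted p = 0.00234) in CD11b+ and -1.74 (SE 0.24, adjusted p = 0.00125) in CD11b- B cells. Of 9 iron handling genes, 2 were higher and 4 lower in CD11b+ B cells and 2 higher and 5 lower in CD11b- B cells. After median-ratio scaling they were 2 higher and 5 lower, and 1 higher and 5 lower. Tfrc, the transferrin receptor, was higher by 2.35 (SE 0.23, adjusted p = 0.00021) and 2.55 (SE 0.21, adjusted p = 9.44e-05), and Hmox1, which breaks down haem, was lower, with differences of -2.68 (SE 0.37, adjusted p = 0.00126) and -5.53 (SE 0.29, adjusted p = 8.17e-06), in CD11b+ and CD11b- B cells. Hmox1 was 10.4 ± 4.7 in CD11b+ and 0.508 ± 0.368 in CD11b- B cells (FPKM, SD, n = 3), which limma did not call (adjusted p = 0.0726). Of the 5 partners of Slc15a4 in Toll-like receptor signalling, 4 were higher in CD11b+ B cells, and 3 were higher and Tlr7 lower in CD11b- B cells before median-ratio scaling. After it, 1 was higher (Tlr9) and 1 lower (Tlr7) in CD11b+ B cells, and 2 were higher (Tlr9 and Unc93b1) and Tlr7 lower in CD11b- B cells. Tlr9 was higher by 1.15 (SE 0.28, adjusted p = 0.0171) and 1.12 (SE 0.27, adjusted p = 0.0137). The calls of Bsg, Emb, Tfrc, Hmox1 and Tlr9 kept their direction after median-ratio scaling.

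Of the zinc response genes, Mt1, a metallothionein, was lower, with differences of -5.43 (SE 0.33, adjusted p = 1.38e-05) in CD11b+ and -7.40 (SE 0.30, adjusted p = 2.24e-06) in CD11b- B cells, and Mt2 was also called lower in CD11b- B cells and, after median-ratio scaling, in CD11b+ B cells (adjusted p = 0.0441). Of 10 genes of lysosomal amino acid sensing, 2 were higher and 1 lower in CD11b+ B cells, and 3 were higher and 3 lower in CD11b- B cells. After scaling these were 2 higher and 4 lower in each. Of 31 tested genes of SLC families with other symbols, 5 were higher and 5 lower in CD11b+ B cells (all genes 21.5% and 8.78%), and 7 were higher and 6 lower in CD11b- B cells (all genes 25.8% and 11%). After scaling these were 4 higher and 8 lower, and 4 higher and 9 lower.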

How the data were processed

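RNA of 9 libraries, 3 each of CD11b+ B cells, CD11b- B cells and PMs, was sequenced as paired reads. The deposited tables hold FPKM, which the authors made with Trim Galore 0.4.4, Trimmomatic 0.36 and cutadapt 1.16 for trimming, STAR 2.7.2b for alignment and featureCounts 1.6.1 for counting, with DESeq2 1.20.0 also listed, per the labels. The labels name both GRCm38 and GRCm39, so positions are taken from GENCODE M21 (GRCm38) by gene ID, which held all 376 Slc genes. A second deposited table holds a signal, gene counts that the authors divided by 1 size factor per library, for 11063 of the 55322 genes, 48 members among them. Its reads equal those behind the FPKM, it was used for that check only, and the clusters the authors gave its genes were not used.

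FPKM is scaled to all reads on genes, so that a few abundant genes lower all others in a library. Every FPKM value came out as a whole number of reads within 0.05 read. These reads were used for edgeR 4.0.16 and DESeq2 1.42.0, and limma 3.58.1 (R 4.3.3) was the main test, on log2(FPKM + 1) of genes with a mean of at least 0.05 over the libraries compared, with trend, two-sided, an adjusted p under 0.05 being a call. Each comparison was fitted on its own 6 libraries. Scripts were tested on simulated data, in which DESeq2 made more false calls than limma and edgeR with filterByExpr. DESeq2 therefore served as an alternative only. Counts of called genes were taken over every Slc gene, since members were chosen by level. A test is given for a member only where it reached FPKM 10 on both sides, or, between the B cell groups, in PMs.

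Alternatives were a pseudocount of 0.1, no filter and a filter of 1, all 9 libraries in one fit, the replicate number as a block, median-ratio scaling, edgeR with filterByExpr or with every gene with a read, edgeR with median-ratio size factors, DESeq2, and each library left out. Genes named were the 10 most abundant members per group, the 10 highest and 10 lowest differences per comparison, calls, members of families that differ in direction, members near the limit and examples of each role. Further members were added to account for the group. Single members not named are counted in every total and not reported here. The members, roles, markers (B cell, macrophage, neutrophil, erythroid, plasma cell, T and NK cell, proliferation) and partner lists were chosen with earlier results of these data known. The T and NK cell sum was at most 2.30 in every library, and 9 of 10 erythroid markers were found. Exons of 16 of the 64 members overlap another gene. Protein sequences were not used here. Promoters of 46 members came from RefSeq, and figures from matplotlib 3.10.9.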

Additional observations from a re-analysis of the deposited data

How the results depend on the processing

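Between CD11b+ and CD11b- B cells limma called 0 Slc genes higher and 0 lower, and edgeR on every gene with a read called 3 and 4, and DESeq2 3 and 1. In CD11b+ B cells against PMs the count of higher genes fell to 30 with median-ratio scaling, and the count of lower genes was 57 of 258 tested with DESeq2 (17.5% of all genes), against 33 of 242 with limma (8.78%). In CD11b- B cells against PMs the count of lower genes was 55 of 333 with edgeR on every gene with a read (11.8% of all genes) and 63 of 246 with DESeq2 (22.1%), against 36 of 242 with limma (11%). The causes were not tested. Leaving out 1 library gave 34 to 52 higher and 21 to 35 lower genes in CD11b+ B cells against PMs, 43 to 66 and 30 to 40 in CD11b- B cells against PMs, and 0 to 0 in both directions between the B cell groups. A limit of FPKM 5 gave 119 members and one of 20 gave 33. By the numbers in the titles, same-numbered CD11b+ and CD11b- libraries correlated at 0.203, -0.011 and 0.167 in their deviations, so that not every pair passed 0.1 and library 2 did not correlate best with its own number. By the numbers in the descriptions the B cell groups share 2 numbers, whose pairs are those at 0.203 and 0.167, each the best for its library, too few pairs to be taken as a pairing. The replicate block gave 0 and 0 calls between the B cell groups by either set of numbers, 42 higher and 28 lower in CD11b+ B cells against PMs, and 53 and 37 in CD11b- B cells against PMs. It lost the calls of Slc25a45 (adjusted p = 0.0878 and 0.0601). No difference of a named member that limma called changed sign in another setting. Read depth limits members near 0 in a group, such as Slc11a1 with 44 reads in CD11b- B cells, and 3 libraries against 3 cannot give an exact p under 0.1.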
